A study of Mus musculus with 3 samples.

Results

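The genes described here were grouped as brakes on the AKT and mTOR growth pathway that cells can raise under stress. The 9 are Phlda3, Trp53inp1, Ddit4, Sesn1, Sesn2, Sesn3, Foxo3, Tsc2 and Prkab1. Brake is used here as the name of the group, and Foxo3 encodes a factor that AKT itself acts on. The 9 genes were picked by symbol from a table of 46078 genes, in part because some differed strongly between hydroxyurea and control. That contrast therefore describes them and does not test them. Each of the 9 symbols has 1 gene identifier in the table, and 8 of them had reads. RNA came from RAW 264.7 cells, a mouse macrophage line from an Abelson leukemia virus tumor, with 1 library for each of 3 conditions. The control was labelled only as control. The HU library came from cells given 0.5 mM hydroxyurea, which blocks ribonucleotide reductase and stalls DNA replication, and the last from cells given the same HU and gold nanocages at once. RNA was taken after 12 hours. The sources used here give no nanocage dose and no vehicle for the control, and the labels do not say how cultures were replicated. A library with nanocages alone was not analysed here.

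AKT is a kinase switched on by phosphoinositide signals from growth factor receptors, and it favours growth and survival. It inactivates the TSC complex, which otherwise holds RHEB and the growth kinase complex mTORC1 in check, and it keeps FOXO transcription factors out of the nucleus. Stress signals act against this pathway at several points, through proteins that keep AKT off the membrane, restore TSC, block amino acid sensing or activate the energy sensor AMPK, and low mTORC1 activity in turn releases autophagy. RNA levels do not show the phosphorylation state of any of these proteins.

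With 1 library a condition, no difference below has a replicate check and no p-value can be given. Ratios are those of CPM, counted reads scaled to a common library total, with exact 95% intervals that cover counting error only. An interval that leaves out 1 describes the libraries and does not say that the treatments differ. Some 95% intervals leave out 1 through counting error alone, and no correction was made for the number of genes. Levels are given as FPKM, the same quantity divided by exonic length. Comparing genes with each other by FPKM depends on the exonic lengths that were deposited. Of 12 macrophage markers 11 were at 1 FPKM or more in every library, while Fcgr3 had 1, 1 and 7 reads. None of the fibroblast, epithelial, endothelial, T or NK cell markers reached 1 FPKM, and of 6 B cell markers Ighm did, at 138.8 FPKM in control, 94.9 in HU and 97.0 with nanocages; its part in the results was not tested. In bulk RNA, fewer cells that express a gene and less RNA per cell cannot be told apart.

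Upstream DNA is shown for Ddit4 and the sestrins, because the sestrin genes differed so much from each other in the data. The windows hold the 250 bases before the RefSeq start on GRCm38.p6 (mm10), 5′ to 3′ on the strand of the gene. RefSeq windows were matched for 8 of the 9 genes, all but Trp53inp1. Capitals mark matches on either strand to CCAAT (written ATTGG on the other strand), ACGTG, which is the core bound by hypoxia factors, or the 10-base half-site of p53. The Ddit4 window is chr10:59951771-59952020 on the minus strand, the downstream of 2 Sesn1 windows is chr10:41887189-41887438 on the plus strand, the Sesn2 window is chr4:132510457-132510706 on the minus strand and the Sesn3 window is chr9:14276051-14276300 on the plus strand.
Ddit4: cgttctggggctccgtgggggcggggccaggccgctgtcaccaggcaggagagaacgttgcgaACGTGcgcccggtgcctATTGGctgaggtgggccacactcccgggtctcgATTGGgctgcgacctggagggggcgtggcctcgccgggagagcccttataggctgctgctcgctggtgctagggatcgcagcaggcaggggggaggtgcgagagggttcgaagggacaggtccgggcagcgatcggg
Sesn1: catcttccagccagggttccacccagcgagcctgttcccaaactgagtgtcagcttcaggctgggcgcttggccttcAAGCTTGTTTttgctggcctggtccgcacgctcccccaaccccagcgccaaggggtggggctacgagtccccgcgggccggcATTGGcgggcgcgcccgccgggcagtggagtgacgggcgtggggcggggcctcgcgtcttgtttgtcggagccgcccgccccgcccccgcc
Sesn2: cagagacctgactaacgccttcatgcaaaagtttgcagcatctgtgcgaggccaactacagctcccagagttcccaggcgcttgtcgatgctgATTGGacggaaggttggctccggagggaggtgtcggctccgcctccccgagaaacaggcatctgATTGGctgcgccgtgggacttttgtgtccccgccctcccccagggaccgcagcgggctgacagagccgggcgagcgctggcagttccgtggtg
Sesn3: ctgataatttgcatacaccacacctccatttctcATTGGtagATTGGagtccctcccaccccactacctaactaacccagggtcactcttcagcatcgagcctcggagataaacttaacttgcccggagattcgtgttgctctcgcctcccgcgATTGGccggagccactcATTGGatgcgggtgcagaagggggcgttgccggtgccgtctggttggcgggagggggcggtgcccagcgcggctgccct
CCAAT was found at 2 places in the Ddit4 window and 2 in the Sesn2 window, at 4 in that of Sesn3 and at 1 in each Sesn1 window, beside 33.8% of 32851 windows of this length with at least 1. ACGTG lay 187 bases before the start of Ddit4, and 16.6% of all windows hold it. The p53 half-site was found only in the downstream Sesn1 window, 173 bases before the start, and 7.13% of all windows hold one. GTAAACA, the FOXO core, TGATGNAA, bound by C/EBP and ATF factors, and CACGTG, which contains ACGTG, were also searched for on both strands and were in none of the 9 windows, against 3.17%, 3.45% and 6.02% of all windows. The windows of Phlda3, Foxo3, Tsc2 and Prkab1 held no match to any of these motifs, and DNA outside the windows was not searched. A match describes letters and not binding, and binding was not measured.

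Hydroxyurea against control asked which brakes are higher when replication is stalled. In HU, 5 of the 9 genes were at least 2-fold higher in CPM, 3 were slightly lower and 1 had no reads, so the description of all 9 as raised by stress holds here for 5. With 99% intervals Sesn1 alone stays below 1, and the intervals of Tsc2 and Prkab1 include it. Over all genes with at least 1 FPKM in either library, 2.8% were at least 2-fold higher, 1.78% at least 2-fold lower, 18.5% had an interval above 1 and 19.8% one below 1. Since this contrast helped to choose the genes, nothing is read from their count against these shares or from their ranks given below. Trp53inp1 passed the 1 FPKM limit through HU only. The summed level of the 9 genes was 87.6 FPKM in control, 265.7 in HU and 263.4 with nanocages.

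**Figure D1:**
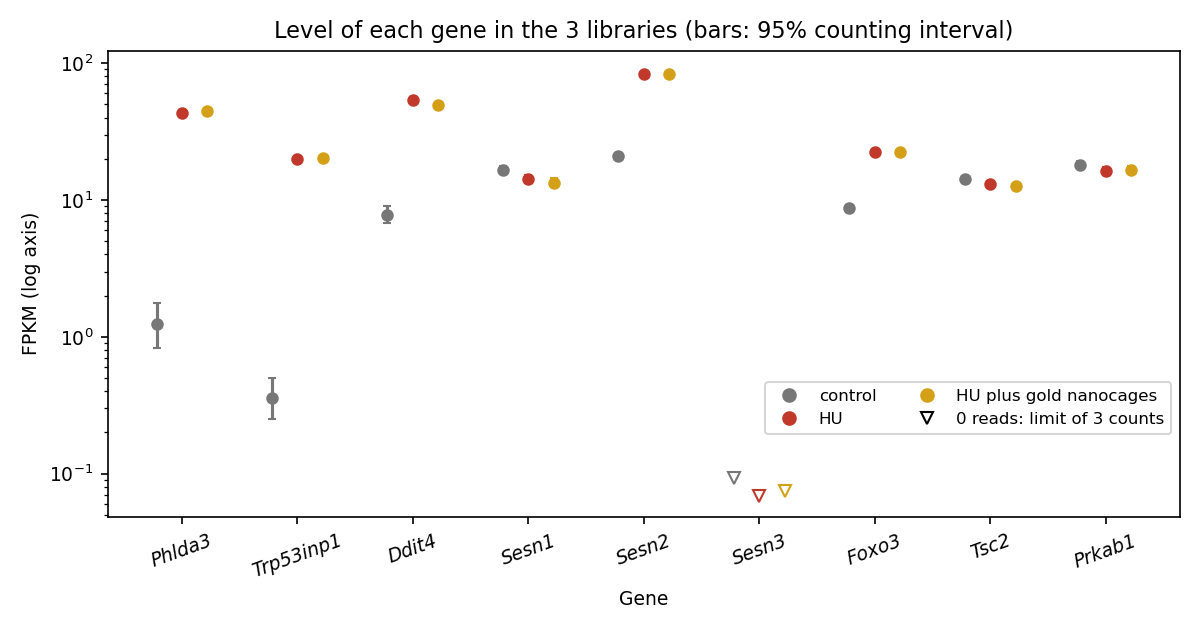
FPKM of the 9 genes (log axis) in the 3 libraries, with points for levels, bars for the 95% counting interval and open triangles for the limit that 3 counts set where a gene had 0 reads. Phlda3, Trp53inp1, Ddit4, Sesn2 and Foxo3 lie higher in both HU libraries than in control, while Sesn1, Tsc2 and Prkab1 lie close together in all 3.

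Phlda3 (chr1:135766119-135769136, plus strand of mm10) encodes a small protein with a pleckstrin homology domain that competes with AKT for membrane lipids. It had 29 reads in control, 1357 in HU and 1301 with nanocages, or 1.24, 43.4 and 44.8 FPKM. Both HU libraries were far above control and close to each other. The HU ratio was 35.0 (24.2 to 52.4), and the width of its interval comes from the 29 control reads. Ordered by the lower end of the interval, Phlda3 was number 2 of 11156 genes.

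Trp53inp1 (chr4:11156431-11174379, plus strand of mm10) encodes a nuclear and autophagosomal protein that takes part in p53 responses and in autophagy. It had 35, 2569 and 2443 reads in control, HU and HU plus nanocages, or 0.36, 19.8 and 20.2 FPKM. Control was nearly silent and the HU libraries were nearly equal. The HU ratio was 54.9 (39.3 to 78.9), number 1 of 11156 genes by the lower end of the interval. Its interval overlaps that of Phlda3, and the difference within the pair was not tested.

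Ddit4 (chr10:59949669-59951834, minus strand of mm10) encodes REDD1, which restores TSC activity and so lowers mTORC1 signalling under stress. It had 197, 1815 and 1554 reads in the same order of libraries, or 7.80, 53.7 and 49.5 FPKM. Control was lowest, and the nanocage library lay a little below HU. The HU ratio was 6.89 (5.94 to 8.02), number 15 by the lower end of the interval. Tsc2 (chr17:24595816-24632630, minus strand), the gene of the TSC subunit that acts on RHEB, was at 14.1, 13.1 and 12.7 FPKM, with 1274, 1575 and 1428 reads. Its HU ratio of 0.924 (0.858 to 0.996) lay just below 1. Exons of Tsc2 share 693 bases with exons of Pkd1 on the opposite strand, a gene at 5.45, 5.70 and 5.83 FPKM. The sources used here do not say whether counting used strand, so reads there cannot be told apart.

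The sestrins bind the amino acid sensing complex GATOR2 and restrain mTORC1, and they can also act with AMPK. Sesn2 (chr4:132492032-132510501, minus strand) had 1084 reads in control, 5766 in HU and 5437 with nanocages, or 20.8, 82.7 and 83.9 FPKM. It was the most abundant of the 9 genes in every library, and both HU libraries were well above control. Its HU ratio was 3.98 (3.73 to 4.25). Sesn1 had 822, 956 and 832 reads, or 16.5, 14.3 and 13.4 FPKM, so control was highest. Its HU ratio was 0.869 (0.791 to 0.955), and this interval and that of Sesn2 are far apart. Sesn3 (chr9:14275067-14333101, plus strand) had 0 reads in all 3 libraries. The exact 95% interval reaches up to 0.114 FPKM in control, 0.0851 in HU and 0.0915 with nanocages. It covers counting error only and holds for the 2162 exonic bases deposited for Sesn3. GENCODE M21 gives the gene 15269 exonic bases, so the 0 covers only the shorter model.

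Prkab1 (chr5:116013586-116024508, minus strand of mm10) encodes the beta 1 subunit of AMPK, the energy sensor that inhibits mTORC1. It was at 18.1, 16.3 and 16.6 FPKM in control, HU and HU plus nanocages, with 830, 1001 and 949 reads. The 3 libraries were close, with an HU ratio of 0.901 (0.821 to 0.989). Foxo3, a FOXO factor that AKT keeps out of the nucleus, had 986, 3411 and 3147 reads, or 8.69, 22.5 and 22.3 FPKM. Both HU libraries were above control, at an HU ratio of 2.59 (2.41 to 2.78), number 73 by the lower end of the interval. Sesn1 and Foxo3 lie 273 kb apart on chromosome 10, at 41809935 to 41908424 and 42181841 to 42276755 of mm10, and only the second was higher in HU. Armc2, the only protein-coding gene between them, had 34, 57 and 57 reads and an HU ratio of 1.25 (0.805 to 1.98).

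The order of the genes by level differed between control and HU. It rests on the deposited exonic lengths. GENCODE M21 gives more bases for Tsc2 (9620 against 6018), Sesn1 (3982 against 3327) and Ddit4 (1755 against 1685). The places of these genes in the order depend on the gene model used. In control the order was Sesn2, Prkab1, Sesn1, Tsc2, Foxo3, Ddit4, Phlda3 and Trp53inp1, where Prkab1 and Sesn1 and also Foxo3 and Ddit4 overlapped within counting error. In HU it was Sesn2, Ddit4, Phlda3, Foxo3, Trp53inp1, Prkab1, Sesn1 and Tsc2, where Sesn1 and Tsc2 overlapped and Prkab1 and Sesn1 met at 15.3 FPKM. With nanocages the order was the same as in HU, and the intervals of Ddit4 and Phlda3 overlapped there, as did those of Sesn1 and Tsc2. Overlap of separate intervals does not test the difference within a pair, so it does not place that difference within counting error. Trp53inp1 and Phlda3, at the bottom of the order in control, were above Tsc2 and Sesn1 in both HU libraries.

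**Figure D2:**
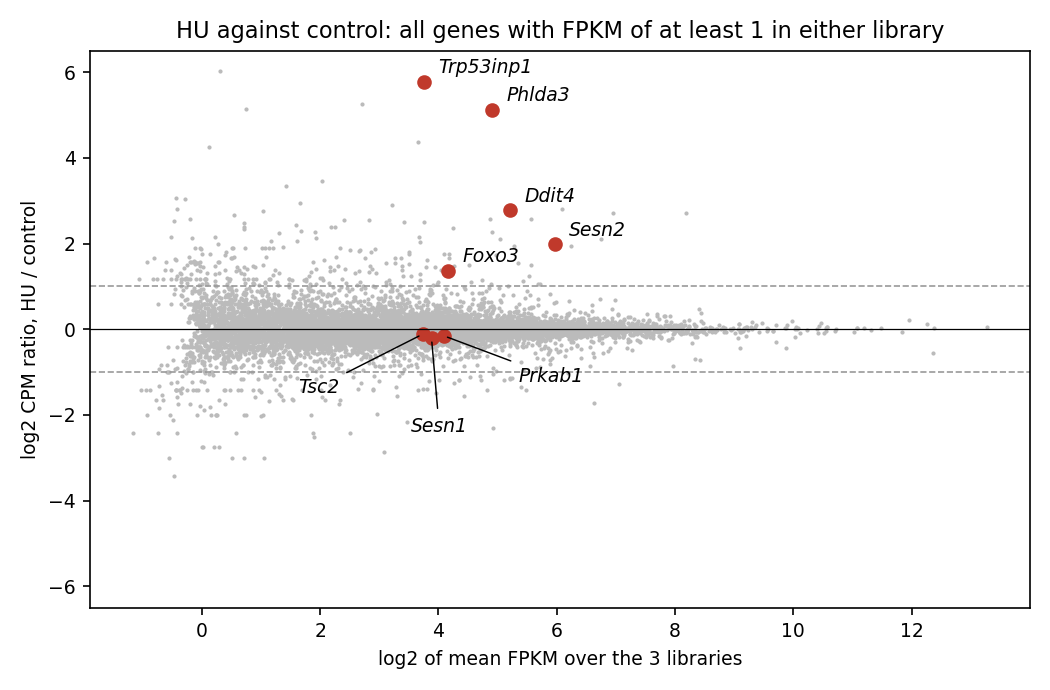
The log2 CPM ratio of HU to control against the log2 mean FPKM, for 11156 genes (grey) and the 8 detected brakes (red). Dashed lines mark 2-fold, and 99 genes, among them those without reads in 1 library, lie outside the axis. Trp53inp1 and Phlda3 sit at 5.78 and 5.13, whereas Tsc2, Prkab1 and Sesn1 lie between -0.11 and -0.20.

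The nanocage library was next set against HU alone, to see how the brakes stood once the nanocages were present. No brake was at least 2-fold higher or lower, beside 1.16% and 1.21% of 11139 genes. The ratios lay between 0.921 for Ddit4 and 1.03 for Phlda3, and 7 of the 8 detected genes had intervals that included 1. The exception was Ddit4 at 0.921 (0.860 to 0.986), beside 7.69% of genes with an interval below 1 and 8.32% with one above 1. Its 99% interval includes 1. Sesn2 had the narrowest interval, at 1.01 (0.977 to 1.05), and Sesn1 was at 0.936 (0.852 to 1.03). Trp53inp1 was at 1.02 (0.968 to 1.08), Foxo3 at 0.993 (0.945 to 1.04), Tsc2 at 0.975 (0.907 to 1.05) and Prkab1 at 1.02 (0.932 to 1.12). These bounds cover counting error, and the spread between cultures is unknown.

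HU plus gold nanocages against control shares the control library with the first contrast. The values of both are therefore set side by side and not counted as a repeat. The first contrast helped to choose the genes, so nothing is read from the counts below against the shares of all genes. At least 2-fold higher were 5 brakes, beside 2.94% of 11164 genes, and none was at least 2-fold lower, beside 1.83%. The same 5 had intervals above 1, beside 19.4% of genes. Their ratios were 36.1 (25 to 54.1) for Phlda3, 56.1 (40.2 to 80.8) for Trp53inp1, 6.34 (5.47 to 7.39) for Ddit4, 4.03 (3.78 to 4.31) for Sesn2 and 2.57 (2.39 to 2.76) for Foxo3. Of the log2 distance between control and HU, Ddit4 lay 4.26% back toward control with nanocages and Foxo3 0.79%. Phlda3, Trp53inp1 and Sesn2 lay 0.87%, 0.568% and 1.04% further away from control than in HU. Sesn1 was at 0.814 (0.738 to 0.897), Tsc2 at 0.901 (0.835 to 0.973) and Prkab1 at 0.919 (0.837 to 1.01), beside 19.8% of genes with an interval below 1.

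**Figure D3:**
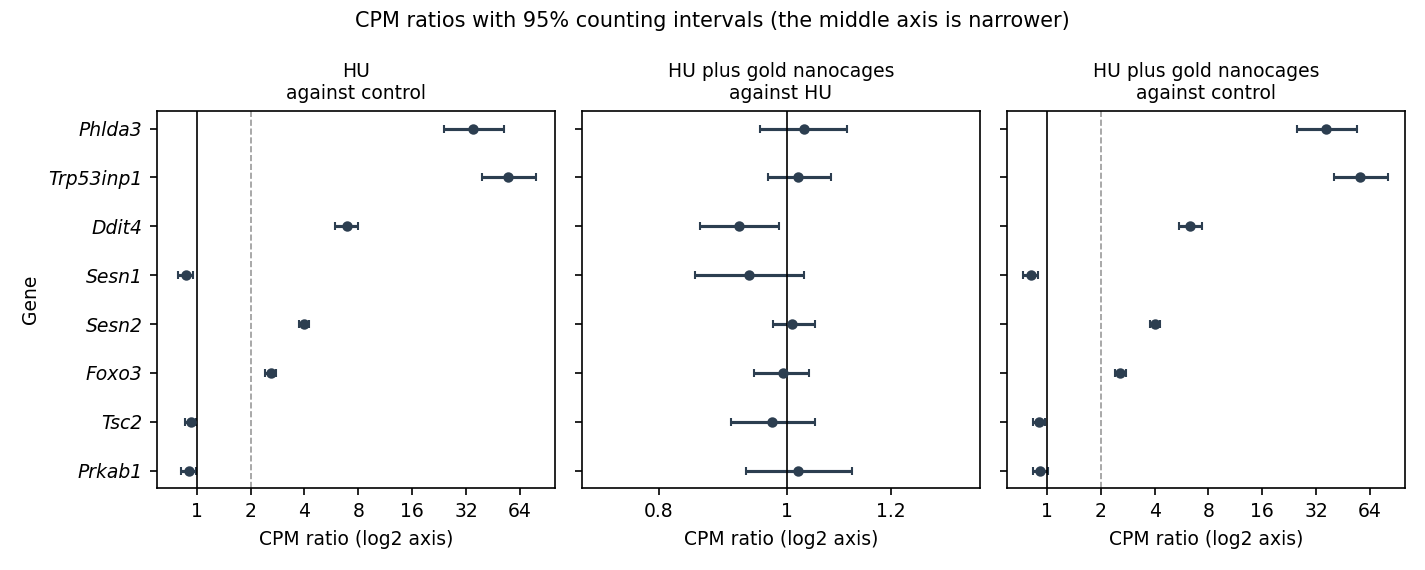
CPM ratios of the 8 detected genes in the 3 contrasts on log2 axes, with bars for exact 95% counting intervals, a solid line at 1 and, in the outer panels, a dashed line at 2. In the middle panel, whose axis is narrower, the Ddit4 interval alone leaves out 1.

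Within 4 gene families, the brake that was higher in HU made up more of the family's RNA there. These shares follow from the HU values that helped to choose the brakes, so they describe the families and add no separate result. Phlda3 made up 28.6% of the summed FPKM of the PHLDA genes in control, 91.4% in HU and 89.9% with nanocages. Phlda1, its relative, had 102, 180 and 206 reads and an HU ratio of 1.32 (1.03 to 1.70), and Phlda2 had none. The Trp53inp1 share of its pair was 12.2%, 85.9% and 85.0%, with Trp53inp2 at an HU ratio of 1.25 (1.05 to 1.5). Sesn2 made up 55.8% of sestrin FPKM in control, 85.2% in HU and 86.2% with nanocages. Foxo3 made up 63.6%, 84.6% and 85.6% of FOXO FPKM. Foxo1 was at an HU ratio of 1.04 (0.851 to 1.27) and Foxo4 at 0.747 (0.608 to 0.919), and Foxo6 had no reads. Ddit4l, the relative of Ddit4, had 0, 0 and 2 reads. The Prkab1 share of the AMPK beta subunits was 81.8%, 77.4% and 76.0%, with Prkab2 at an HU ratio of 1.18 (1.02 to 1.37). None of the 5 relatives above 1 FPKM was 2-fold apart.

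**Figure D4:**
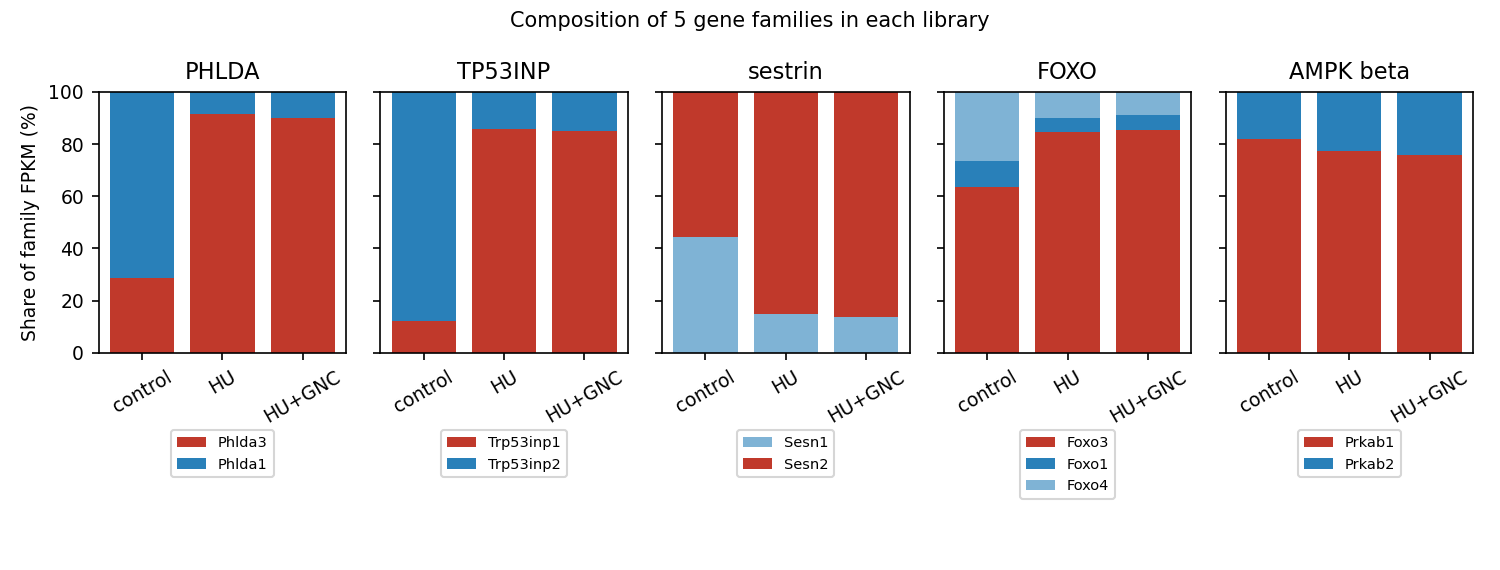
Share of each family's summed FPKM (percent) taken by each member in control, HU and HU plus nanocages (HU+GNC); genes without reads are left out. The Sesn2 share is 55.8% in control and 85.2% or more in both HU libraries, and the Prkab1 share lies between 76.0% and 81.8%.

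Few genes of the rest of the AKT and mTOR machinery were 2-fold apart between control and HU, while more of them than of all genes had intervals below 1. Of 97 genes in 7 lists, 86 were tested in HU against control. Of these, 2 were at least 2-fold higher (2.33%, beside 2.8% of all genes) and none at least 2-fold lower. Their median log2 ratio was -0.06, beside -0.01 for all genes tested. Intervals lay above 1 for 12.8% and below 1 for 30.2%, beside 18.5% and 19.8% of all genes. Genes with more reads have narrower intervals, and the machinery genes were not matched to all genes by read number. Both genes at least 2-fold higher encode mTORC1 substrates. Lpin1, a phosphatidate phosphatase and regulator of lipid genes, had 103, 600 and 532 reads and an HU ratio of 4.35 (3.53 to 5.42). Ulk1, the kinase that starts autophagy, had 378, 1594 and 1538 reads.

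Among 15 genes of PI3K and AKT input, 3 had intervals above and 9 below 1. Pik3cg, a catalytic PI3K subunit of leukocytes, was furthest from control, at 17.6, 10.8 and 11.9 FPKM and an HU ratio of 0.612 (0.570 to 0.656). Other brakes on PI3K and AKT did not share the high values: of 9, 1 had an interval above and 3 below 1. Inppl1, which encodes the lipid phosphatase SHIP2, was at 0.906 (0.854 to 0.961). TSC1, the partner of TSC2, is encoded by Tsc1, at 0.892 (0.816 to 0.976), and the other 3 genes around RHEB included 1. Of 10 genes of the mTOR complexes, Akt1s1 was furthest, at 1.26 (1.16 to 1.36); it encodes PRAS40, an inhibitory mTORC1 subunit. Of 25 genes of the RAG, Ragulator and GATOR complexes, 3 had intervals above and 3 below 1, and Wdr59, a GATOR2 gene, was at 0.795 (0.693 to 0.913). Of 9 LKB1 and AMPK genes, none had an interval above and 3 had one below 1. The AMPK gamma subunit gene Prkag1 was at 0.964 (0.876 to 1.06). Inppl1, Wdr59 and Prkag1 were named for their largest ratio in any contrast. Other genes of their lists lay further from 1 in HU against control.

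**Figure D5:**
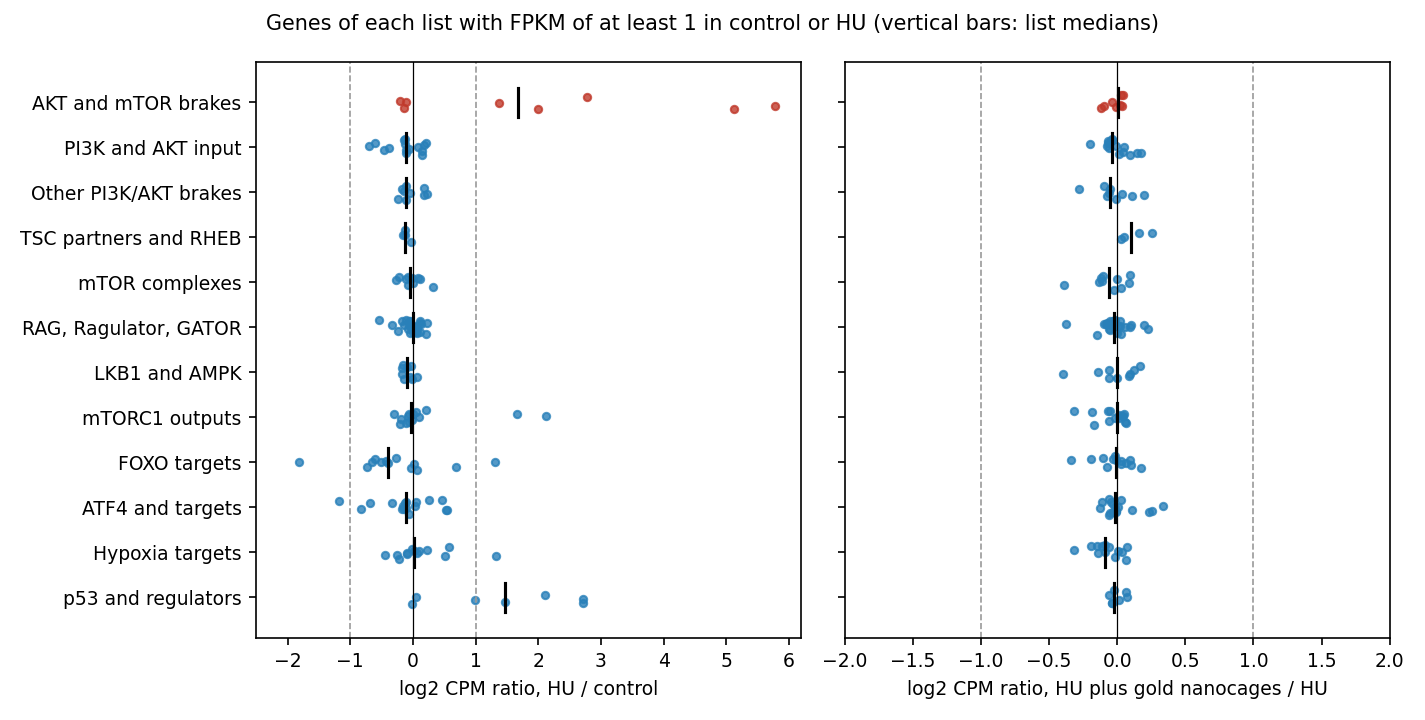
The log2 CPM ratios of the brakes (red) and of the genes of 11 pathway lists (blue) in HU against control and in HU plus nanocages against HU; vertical bars are medians, dashed lines mark 2-fold, and genes under 1 FPKM in both control and HU are left out. In HU against control the medians of the 7 machinery lists lie between -0.13 and 0.01, and that of p53 and its regulators at 1.47.

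The last 4 lists concern factors upstream or downstream of the brakes. They hold known targets, the ATF4 and p53 lists also hold the factors themselves, and the p53 list holds regulators of p53. The counts of these lists stand beside 18.5% of all genes with intervals above 1 and 19.8% below. Of 13 known FOXO targets, 2 had intervals above and 8 below 1 in HU, with a median log2 ratio of -0.40. Rbl2, a pocket protein gene, was at 2.49 (2.22 to 2.79), but Ccng2, which encodes cyclin G2, was at 0.282 (0.210 to 0.375). Of 17 genes of the ATF4 list, a program to which Ddit4 and Sesn2 also belong, 4 had intervals above and 11 below 1, and Chac1 was at 0.442 (0.394 to 0.496). Of 13 hypoxia targets, which Ddit4 also is, 5 were above and 3 below, and Ankrd37 was at 2.51 (1.74 to 3.69). Of 7 measured genes of p53 and its regulators, 5 had intervals above and none below 1, with a median log2 ratio of 1.47. Ccng1, which encodes cyclin G1, was at 4.33 (4.12 to 4.56) and Zmat3, an RNA-binding p53 target, at 2.76 (2.52 to 3.04), while Trp53 itself was at 0.991 (0.953 to 1.03).

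With nanocages against HU, the machinery stayed near the HU level. Of 86 genes tested, 4 had intervals above and 8 below 1, or 4.65% and 9.30%, beside 8.32% and 7.69% of all genes. The count below 1 depends on the scaling and was 12 under upper-quartile scaling. The median log2 ratio was -0.02. The 1 gene at least 2-fold higher was Eif4ebp3, a translation repressor gene, on 6 reads in HU and 16 with nanocages (2.87, 1.07 to 8.95). Pik3cg was at 1.11 (1.03 to 1.19). Mtor, named after its values were seen, was at 0.911 (0.859 to 0.966).

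The genes most like each brake were sought among 7442 genes, by the distance between their log2 ratios to control in HU and in HU plus nanocages. With 3 libraries, likeness rests on 2 ratios that share the control, and the 9 brakes themselves were left out of the search. Nearest to Phlda3 were Fam212b, at a distance of 0.159, and Epha2, at 1.06. The same genes were nearest to Trp53inp1 but far from it, at 0.756 and 1.97: Epha2 had an HU ratio of 20.6, against 54.9 for Trp53inp1. Cdkn1a, at a distance of 0.0748, and Mdm2, at 0.0962, were nearest to Ddit4. Gtse1 (0.0801) and Plk2 (0.115) were nearest to Sesn2, and Phf1 (0.0557) and Pml (0.0623) to Foxo3. The distances take no account of counting error, and in control Fam212b had 18 reads and Phf1 79. Which gene is nearest is therefore not settled. In the GO terms of the deposited table, 4 of the 9 genes carry apoptotic process, a term of 545 genes: Phlda3, Trp53inp1, Ddit4 and Foxo3. Negative regulation of TOR signaling, a term of 23 genes, is given to Ddit4 and Tsc2.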

How the data were processed

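Paired-end RNA sequencing gave 1 library for each of 3 conditions. The deposited table holds raw read counts per gene and library, which the authors did not normalize. In 100% of genes the deposited FPKM matched a value recomputed from the count, the exonic size and the library total to within 0.0051. Exonic size, in bases, is a deposited value of an other kind. Per the submitters' processing notes, the build was mm10, and HISAT2 2.0.1 and HTSeq 0.6.1 were among the tools, as were DESeq, cutadapt, SAMtools 0.1.18 and bcl2fastq 2.17.1.14. The sources used here do not give their roles, the annotation release or the strand setting.

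Library totals came to 14990564 counts for control, 20057329 for HU and 18644333 for the nanocage library, so 1 read was worth 0.0667, 0.0499 and 0.0536 CPM. Where a symbol had several identifiers, the one with most reads was used. CPM ratios were computed from counts over summed counts, with exact (Clopper-Pearson) 95% intervals conditional on both counts (Python 3.11.15, scipy 1.17.1); intervals of FPKM levels are exact Poisson. Reads carry no molecular identifiers, so intervals cover counting error only. Genes with at least 1 FPKM in either library were tested, and called at 2-fold or where the interval left out 1. No p-value was computed. On counts simulated with Poisson counting error only, for 11156 genes of HU against control, 95.0% of intervals held the true ratio. The intervals assume the same error, so this checks the computation and not the spread between cultures. Scaling alternatives used edgeR 4.0.16 and DESeq2 1.42.0. Coordinates are from GENCODE M21 and upstream sequences from RefSeq, GRCm38.p6.

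The 9 genes, the gene lists and the rules were chosen with earlier results of these data known; the promoter motifs were chosen after these values were seen. All 204 listed symbols were found, 2 of them by gene identifier. Named from the lists were genes at least 2-fold apart in any contrast, at most 4 a list. Lists without such a gene gave the gene furthest from 1 in any contrast among those at 5 FPKM or more. The 2 nearest genes to each brake at least 2-fold higher in HU were named, without predicted, Rik and microRNA genes and at 5 FPKM or more. Genes named beyond these, such as the other members of families, Trp53, Armc2 and Pkd1, were chosen with their values in view.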

Additional observations from a re-analysis of the deposited data

How the results depend on the processing

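The counts of brakes at least 2-fold higher, 5 in HU against control, 0 in HU plus nanocages against HU and 5 in HU plus nanocages against control, stayed within 1.5 times under every alternative run. A 3-fold threshold left 4 against control in both HU libraries, without Foxo3, and log2(FPKM + 5) left 4 with nanocages. The alternatives were TMM, DESeq2 size factors, upper-quartile scaling, summed counts without mitochondrial and the 20 most abundant genes, no FPKM filter or one of 5, thresholds of 1.5-fold and 3-fold, and log2 FPKM with pseudocounts of 0.1, 1 and 5. The same scaling and filter settings left the counts of brakes with intervals above 1 as they were. Counts below 1 and of machinery genes under the alternatives were added after seeing the data, and the machinery counts stayed within 1.5 times. The largest change was in HU plus nanocages against HU. There the machinery genes with an interval below 1 went from 8 to 12 under upper-quartile scaling. With 99% intervals the brakes below 1 went from 3 to 1 in HU against control and from 1 to 0 in HU plus nanocages against HU, because the intervals are wider. Across scalings the HU ratio of Trp53inp1 ranged from 54.9 to 55.0 and the ratio of Ddit4 with nanocages against HU from 0.915 to 0.921. Depth limits Phlda3 and Trp53inp1 most, with 29 and 35 control reads. No paired analysis was possible because each condition has 1 library, and for the same reason no library could be left out.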
